A study of Homo sapiens with 30 samples.

Results

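COLO205 cells held in ML-792 for 16 h were compared with COLO205 cells held in vehicle for the same time. COLO205 is an established human colorectal cancer line, and ML-792 (ML00754792 in the labels) is an inhibitor of the SUMO-activating enzyme. The treated group had 3 libraries from cells given ML-792 at 500 nM, and the control group had 3 libraries from cells given DMSO at 0.01%. These are 6 of the 30 libraries of the series, and the labels name no genetic change in either group. The labels call the replicates biological triplicates without saying whether they were separate cultures, so the p-values below measure the spread between these libraries only. Total RNA was turned into stranded libraries of messenger RNA and sequenced in pairs of 50-base reads. Gene levels are FPKM, fragments scaled to transcript length and to the library's total. Genes that reached 1 FPKM in no fewer than 3 of the 6 libraries were tested, which was 12050 of 30373. Just inside that limit, 203 genes passed in exactly 3 libraries, with a median level of 1.04 FPKM, and just outside it 157 genes passed in exactly 2, with a median of 0.909 FPKM. Of the genes at the limit, 99 passed through the ML-792 libraries alone and 35 through the DMSO libraries alone.

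SUMO proteins are small ubiquitin-like modifiers that are joined to lysines of other proteins, many of them transcription factors and chromatin proteins. The chain of transfer starts at the E1 enzyme, a dimer of SAE1 and UBA2, and ends at the target, with E3 ligases such as the PIAS proteins helping and SENP proteases taking the modifier off again. SUMO on promoter-bound factors is best known for its link to repression, and SUMO is also a building part of PML nuclear bodies and acts in mitosis and in ribosome assembly.

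Depth, estimated from the steps between low values, was 26.4 to 33.7 M (mega) fragments per library, and 11880 to 12053 genes reached 1 FPKM. Mitochondrially encoded genes held 15.7% to 16.2% of the summed FPKM in the DMSO libraries and 16.6%, 17.1% and 18.1% in ML-792 libraries 1 to 3. Of 13 colon epithelium markers, 9 were at 1 FPKM or more in all 6 libraries, with KRT8, KRT18, EPCAM and VIL1 abundant, while ALPI was at or near 0, KRT20 stayed under 1 FPKM, and CDX2 passed it in 1 library only. Of 17 mesenchymal markers 16 were under 1 FPKM throughout (VIM, CDH2, TWIST1 and SPARC at or near 0), and of 14 leukocyte markers LYZ alone, at 714 to 828 FPKM, reached 1 FPKM in all 6, with PTPRC, MS4A1 and TYROBP at 0. The summed level of the colon markers was 4116 to 4365 FPKM in DMSO and 4587 to 5000.2 FPKM in ML-792. Its largest parts were KRT8 (1532 to 1691 FPKM in DMSO, 1796 to 2027 FPKM in ML-792) and KRT18 (1253 to 1326 and 1388 to 1507 FPKM). LGALS4 went the other way, from 233, 235 and 238 to 201, 176 and 162 FPKM, and CDH17 overlapped between the groups.

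ML-792 libraries 1 and 3 lay at opposite ends of their group, and library 3 was the further from library 2. Across genes, the Pearson correlation between libraries of a group was at least 0.9977 in DMSO, but ranged from 0.9916 to 0.9972 in ML-792. The first principal component, with 73.5% of the variance, separated the groups, and the second, with 15.2%, placed ML-792 library 1 at -11.5 and ML-792 library 3 at 12.6. Of the 20 genes with the widest spread among the ML-792 libraries, 18 were lowest in library 3 and 15 were highest in library 1. The cytokine gene IL8 was at 19.6, 13.4 and 0.903 FPKM in ML-792 libraries 1 to 3 against 19.8, 15.96 and 16.3 FPKM in DMSO, the immediate early gene EGR1 at 82.5, 84.7 and 17.1 against 92.2, 108 and 103 FPKM, and the EGFR ligand gene AREG at 175, 176 and 48.5 against 262, 261 and 262 FPKM. These 3 genes did not pass the test. Counts below are therefore given without library 3 wherever this moves them by more than 1.5-fold, and for most lists.

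**Figure D1:**
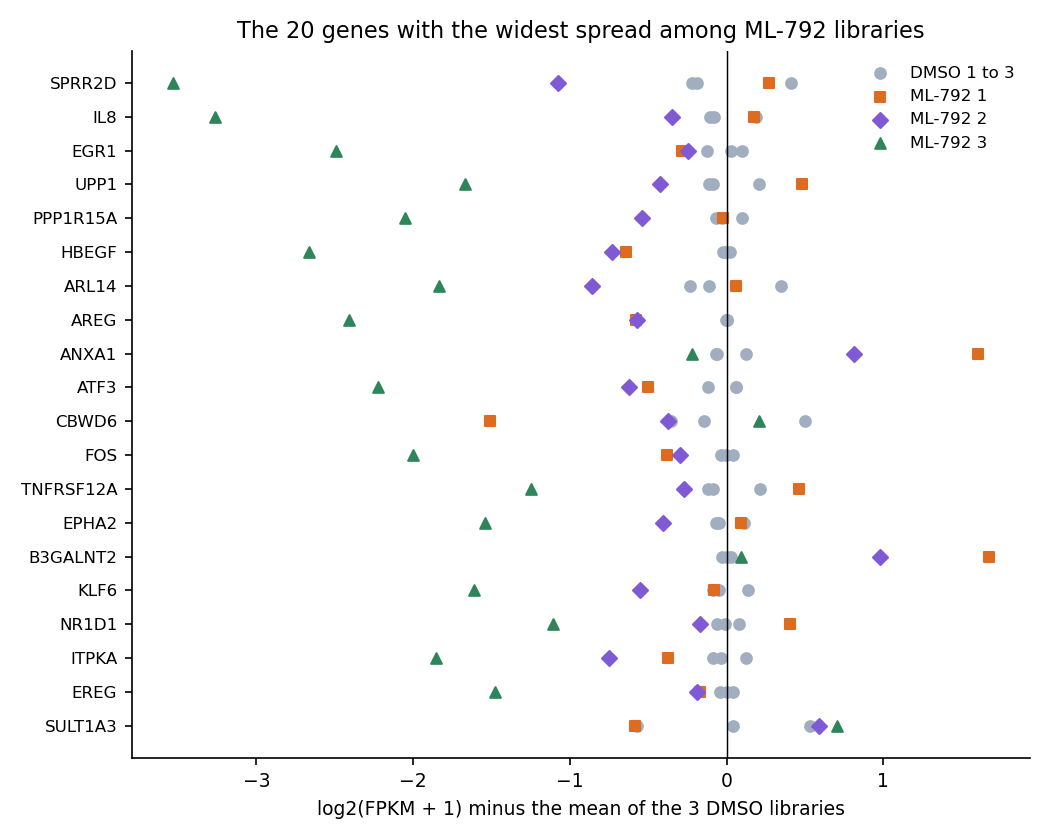
Level in each library of the 20 genes with the widest spread among the 3 ML-792 libraries, as log2(FPKM + 1) minus the mean of the 3 DMSO libraries (horizontal axis, 1 gene per row). ML-792 library 3 (triangles) is the lowest of the ML-792 libraries for 18 of the 20 genes, while the grey DMSO points lie close to 0 for most of them.

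ML-792 changed many transcripts by small amounts and a few by large ones. limma called 4830 of the 12050 genes (40.1%) at a Benjamini-Hochberg adjusted p under 0.05, 2404 higher (20%) and 2426 lower (20.1%). The counts of gene lists below are to be read against these shares. The lists were chosen with earlier results of these data known. Their shares therefore describe the members and are no test of the lists. Of the called genes 4394 moved by less than 1.5-fold. The median size of change over all called genes was 0.27 on the log2(FPKM + 1) scale, which is used for all changes below and understates those of low genes. A change of 2-fold or more was called in 104 genes (0.863%), and here rises prevailed, with 78 higher (0.647%) and 26 lower (0.216%). Changes of 4-fold or more numbered 13. Over all genes tested the median change was 0.00, and the groups did not overlap in 6471 genes (53.7%). Across the 11261 genes with a reference transcript, the change had a Spearman rho of -0.297 with GC content and 0.124 with length, and 4474 genes were called with that trend removed. With ML-792 library 3 left out, 4929 genes were called and 81 at 2-fold or more. The 2-fold count depended on the constant added before taking logs, with 181 genes at a constant of 0.1 and 40 at 5. Below, each change is followed by its SE from limma, between groups of n = 3.

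**Figure D2:**
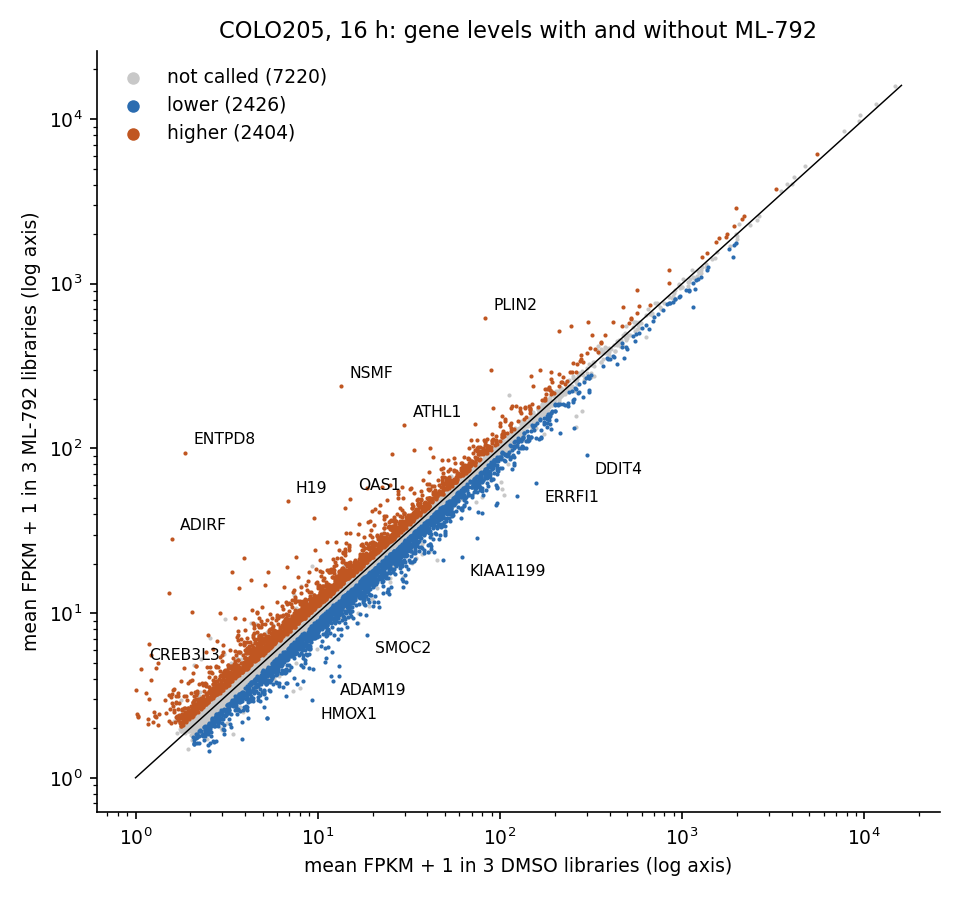
Mean level of each of the 12050 genes tested in the 3 DMSO libraries (horizontal) and the 3 ML-792 libraries (vertical), as FPKM + 1 on log axes, coloured by call. Most called genes lie close to the line of equal levels, and ENTPD8, ADIRF, NSMF and PLIN2 lie far above it.

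The messages for the modifiers SUMO2 and SUMO3 rose, while those for the subunits of the E1 enzyme did not pass the test. SUMO3 was at 28.8, 26.4 and 29.4 FPKM in the DMSO libraries and at 54.8, 56.6 and 61.7 FPKM with ML-792, a rise of 1.01 ± 0.06 (adjusted p = 2.05e-06). SUMO2, which differs little from SUMO3 in protein sequence and was the more abundant message here, went from 165, 159 and 171 to 276, 293 and 321 FPKM, a rise of 0.84 ± 0.06. For both genes every treated library was above every control library, and ML-792 library 3 was the highest. The E1 subunits were at 71.6, 72.8 and 75.1 FPKM in DMSO and 69.4, 69.3 and 69.3 FPKM in ML-792 for SAE1, and at 49.5, 48.7 and 49.7 and 45.4, 48.9 and 47.7 FPKM for UBA2, with adjusted p = 0.145 and 0.304. Among ligases and proteases the E3 ligase gene PIAS3 fell by 0.41 ± 0.07 and the desumoylating isopeptidase gene DESI1 fell by 0.41 ± 0.06. The SENP proteases moved little, with SENP1, SENP2, SENP3 and SENP6 between -0.08 and -0.03 and none of these 4 called. SENP7 changed by 0.14 ± 0.09 and was not called. SENP5 was called higher by limma (0.15 ± 0.05, adjusted p = 0.042), a call lost without DMSO library 1, 2 or 3 or ML-792 library 2. Of all 25 SUMO genes tested 6 were higher (24%, against 20% of all genes) and 3 lower (12%, against 20.1%), with a median change of 0.05. Without ML-792 library 3 they were 5 higher and 3 lower, and the 6 higher calls became 3 when DMSO library 1 or ML-792 library 2 was left out and 2 when DMSO library 2 was.

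Among partners of SUMO in chromatin, a few genes changed by about 2-fold or more. ATF7IP, which binds the H3K9 methyltransferase SETDB1, stood at 7.14, 6.79 and 6.54 FPKM in DMSO and 16.4, 15.8 and 14.7 FPKM in ML-792, a rise of 1.09 ± 0.05, with no overlap between the groups. FAM208A (TASOR, of the HUSH silencing complex) rose by 0.38 ± 0.06, the heterochromatin protein gene CBX5 by 0.34 ± 0.05 and the zinc finger gene ZNF274, which recruits SETDB1, by 0.39 ± 0.09. SETDB1 itself fell by 0.17 ± 0.05, from 14.3, 14.6 and 14.98 to 13.4, 13.1 and 12.2 FPKM, a call lost without DMSO library 2 or 3. In all, 8 of 20 genes of H3K9 silencing were higher (40%, against 20% of all genes) and 1 was lower (median 0.11). Without ML-792 library 3 the counts were the same. Of 25 SCAN-domain zinc finger genes tested, 5 were higher (20%) and 4 lower (16%), near the shares of all genes, 20% and 20.1%. Among them ZSCAN31 rose from 2.90, 2.59 and 2.66 to 13.3, 13.4 and 12.7 FPKM (1.92 ± 0.05) and ZNF165 from 5.58, 5.25 and 5.75 to 12.9, 13.1 and 14.5 FPKM (1.15 ± 0.06). Without ML-792 library 3 the counts were 4 and 3. The 4 lower calls of this family were fragile, with 0 left without DMSO library 1 or 2 and 1 left without DMSO library 3 or ML-792 library 2. Among 10 PML body components 4 were higher and 0 lower (0 also at an unadjusted p under 0.05 in limma), with a median of 0.07, and 1 or 2 were left without DMSO library 1, 2 or 3 or ML-792 library 1 or 2.

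Genes of lipid droplets and fatty acid oxidation, many of them known targets of PPAR nuclear receptors, held some of the largest rises. PLIN2, the coat protein of lipid droplets, was at 80.6, 80.8 and 85.4 FPKM in DMSO and 590.2, 621 and 631 FPKM in ML-792, 7.46-fold in mean level (rise 2.88 ± 0.05, adjusted p = 1.52e-10). This gene was well expressed already without the drug, and its treated libraries lay within a narrow band far above the controls. PDK4, the kinase that turns off pyruvate dehydrogenase, rose from 0.366, 0.337 and 0.301 to 3.89, 4.12 and 3.99 FPKM (1.90 ± 0.06). CREB3L3, an ER-bound transcription factor of fasting metabolism in liver and gut, rose from 0.0603, 0.0614 and 0.0834 to 3.46, 3.69 and 3.64 FPKM (2.10 ± 0.07). The last 2 genes were under 1 FPKM in every DMSO library and over it in every treated library, so they entered the test through the ML-792 libraries alone. ACSL1, which activates long-chain fatty acids, rose by 1.36 ± 0.06 from 22.01, 21.04 and 21.7 to 52.3, 56.1 and 62.4 FPKM. CPT1A, the gate of mitochondrial fatty acid import, rose by 0.47 ± 0.06, the fatty acid binding protein gene FABP1 by 0.43 ± 0.09 and the droplet protein gene PLIN3 by 0.34 ± 0.06.

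Not every gene of lipid storage followed. G0S2, the inhibitor of the lipase ATGL, fell from 5.43, 6.50 and 5.29 to 2.67, 2.60 and 1.199 FPKM (1.13 ± 0.22 in size), with ML-792 library 3 the lowest. DGAT2, which makes triglyceride, fell by 0.46 ± 0.05, the lipoprotein receptor gene VLDLR by 0.42 ± 0.08, and PNPLA2, the gene for ATGL, by 0.24 ± 0.04. PPAR receptor genes were no members of the list and were looked up after its values were seen. PPARG fell from 28.8, 26.5 and 28.2 to 19.2, 16.2 and 15.1 FPKM (0.70 ± 0.08 in size), while PPARA was at 4.18, 4.94 and 4.13 FPKM in DMSO and 4.13, 4.15 and 4.28 FPKM in ML-792 (adjusted p = 0.513). Of 32 listed genes 22 were tested, 12 higher (PDK4 and CREB3L3 among them) and 4 lower with a median of 0.14. These are 54.5% and 18.2%, against 20% and 20.1% of all genes. Without ML-792 library 3, 9 were higher and 4 lower. The 10 untested genes, among them ANGPTL4, CD36, PLIN4 and PLIN5, did not reach 1 FPKM in 3 libraries.

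**Figure D3:**
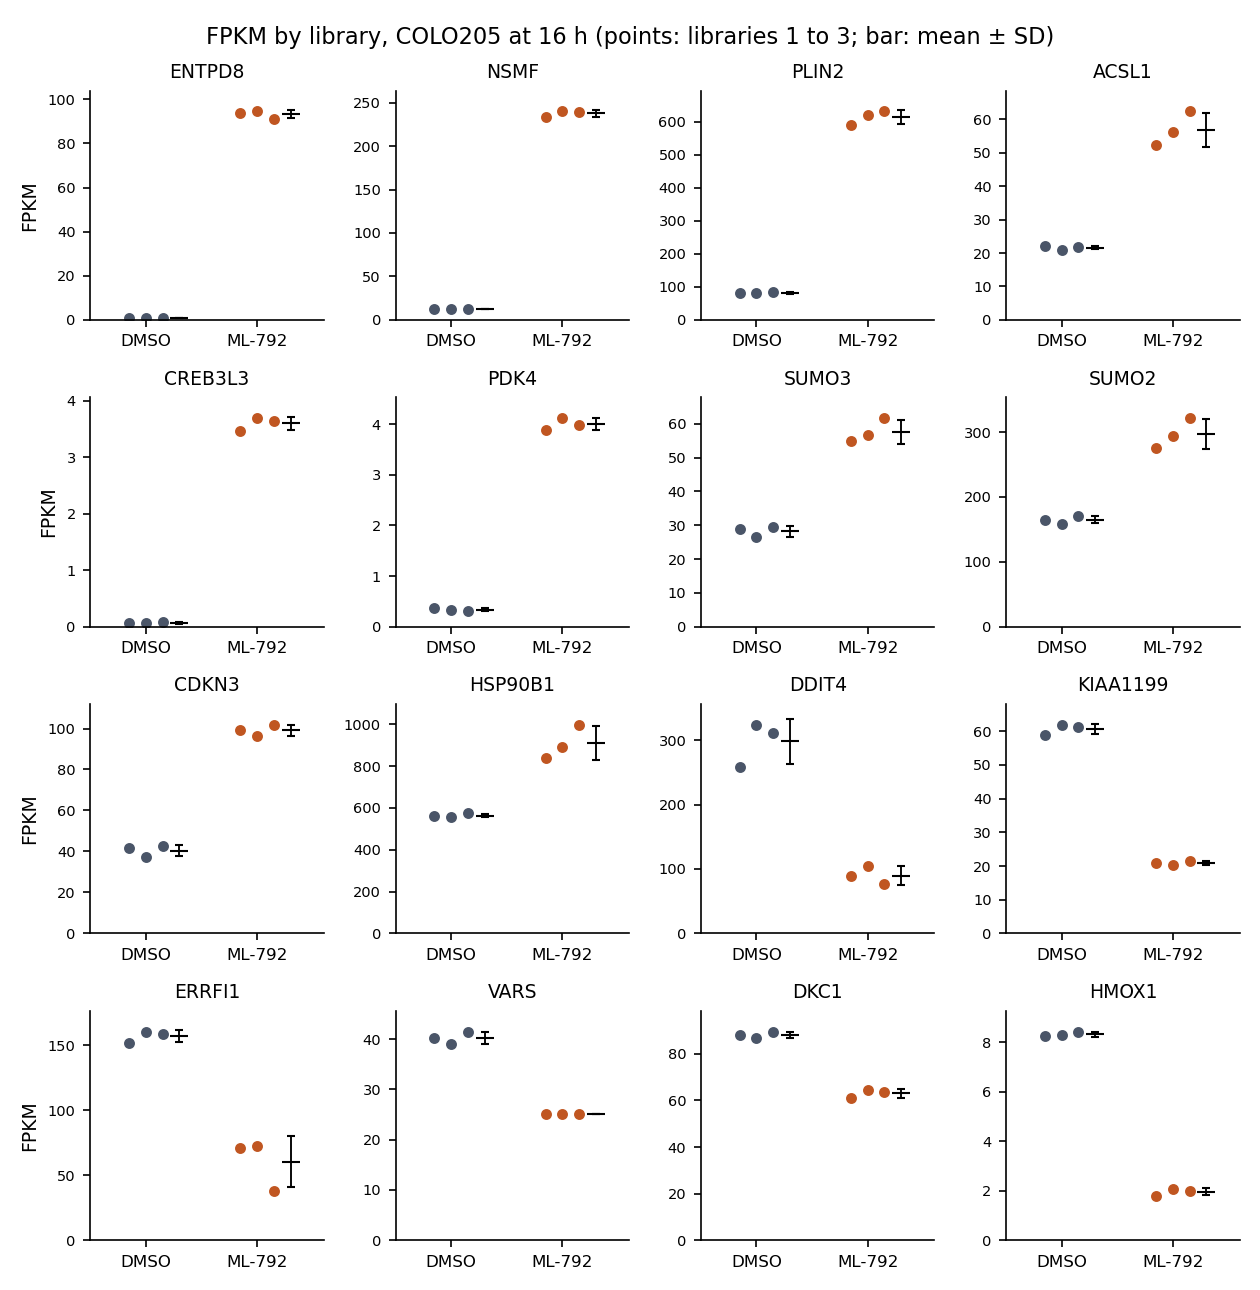
FPKM of 16 genes in each of the 3 DMSO and 3 ML-792 libraries (points, in the order of library 1 to 3), with the mean and SD beside them, all axes starting at 0. The groups are apart in all 16 panels, which was a condition for naming several of these genes. In the ERRFI1 panel ML-792 library 3 lies well below the other 2 treated libraries.

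The largest rise of all belonged to ENTPD8, an ectonucleotidase of the cell surface, which was at 0.807, 0.83 and 0.959 FPKM in DMSO and 93.8, 94.5 and 91.1 FPKM in ML-792, a 108-fold ratio of means (rise 5.66 ± 0.05, adjusted p = 1.31e-12). It was under 1 FPKM in all 3 DMSO libraries and entered the test through the ML-792 libraries alone, as did ADIRF and PNPLA7 below. NSMF, its neighbour, encodes a protein known from synapse-to-nucleus signalling and rose from 12.3, 12.8 and 12.3 to 233, 239.9 and 239.7 FPKM (4.15 ± 0.04). Genes beside this pair were then looked up. PNPLA7, a lysophospholipase gene on the far side of NSMF in RefSeq order, rose from 0.502, 0.563 and 0.494 to 13.1, 11.98 and 11.6 FPKM (3.12 ± 0.06), and NOXA1, an activator of NADPH oxidase on the far side of ENTPD8, from 1.99, 1.47 and 2.26 to 4.40, 4.99 and 3.75 FPKM (0.89 ± 0.12). MRPL41, beyond PNPLA7, changed by 0.19 ± 0.08 (adjusted p = 0.0963). All 3 replicates agreed closely for ENTPD8, NSMF and PNPLA7.

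Such runs of adjacent genes recurred. Among 68 genes higher by 2-fold or more that could be placed on RefSeq (GRCh38.p14, used here for gene order only), 28 (41.2%) had a directly adjacent tested gene that was also called higher by at least 1.5-fold, against 486 of 11269 tested genes (4.31%) placed in the same way. For falls it was 1 of 23 genes (4.35%) against 305 (2.71%). The 28 include ENTPD8, PNPLA7, PDK4, TKTL1, IFITM2, MRGPRG and MRGPRG-AS1, which entered the test through the ML-792 libraries alone. Pairs such as ENTPD8 and NSMF were counted from both sides. Entries that may overlap, such as FAM47E and FAM47E-STBD1, counted as neighbours. The share for rises is raised by such genes to an extent that was not tested. The runs, named after their values were seen, included ATP11A (1.54) with MCF2L (1.06), RNF103 (1.48) with RMND5A (1.10), FAM53A (1.07) with SLBP (1.05), PLXNB3 (1.77) with SRPK3 (1.34), TKTL1 (1.43) with FLNA (0.98), ZNF165 (1.15) with ZSCAN12P1 (1.12), BMP4 (0.88) with CDKN3 (1.27), and ATHL1 (2.21) with IFITM2 (1.02) and IFITM3 (0.55). BMP4, a growth factor gene, was at 143, 148 and 153 FPKM in DMSO and 258, 283 and 282 FPKM in ML-792. How reads of overlapping or paralogous neighbours such as the IFITM genes were shared out is not given in the sources used, and the split within such pairs is uncertain.

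Other large rises came from single genes of varied roles. ADIRF, a regulator of fat cell differentiation, went from 0.726, 0.631 and 0.38 to 31.7, 27.02 and 23.3 FPKM (4.16 ± 0.12). H19, an imprinted non-coding RNA, went from 6.20, 5.65 and 5.64 to 45.9, 45.9 and 49.1 FPKM (2.81 ± 0.05). ATHL1, a glucosidase gene, rose by 2.21 ± 0.04 from 28.8, 28.3 and 29.7 FPKM to 135, 137 and 139.6 FPKM. All genes named as largest rises were chosen with groups that did not overlap. GULP1, an engulfment adaptor, rose by 1.98 ± 0.08, the P4-ATPase genes ATP9A and ATP11A, of the lipid flippase family, by 1.62 ± 0.05 and 1.54 ± 0.05, and the water and glycerol channel gene AQP3 by 1.61 ± 0.07. PTMS, encoding the small acidic protein parathymosin, rose by 1.53 ± 0.06, and RNF103, an ER ubiquitin ligase, by 1.48 ± 0.10. KIAA1551 was uneven among treated libraries, at 29.2, 20.2 and 12.2 FPKM against 3.31, 3.02 and 2.56 FPKM in DMSO, with ML-792 library 1 the highest (rise 2.37 ± 0.34, adjusted p = 0.00683).

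In 20 genes, chosen by these values, the level was under 0.5 FPKM in every DMSO library and at 1 FPKM or more in every ML-792 library, and in 0 genes the reverse held. Of the 10 with the largest ratio, 2 belong to the lipid group above (CREB3L3 and PDK4). WFDC9, of a family of protease inhibitors, went from 0.144, 0.14 and 0.265 to 4.12, 6.28 and 6.16 FPKM (2.45 ± 0.13). TKTL1, a transketolase relative, went from 0.124, 0.136 and 0.171 to 3.75, 1.76 and 1.24 FPKM (1.43 ± 0.28), highest in ML-792 library 1, and its call was lost without DMSO library 2. MRGPRG, an orphan receptor gene, and its antisense gene MRGPRG-AS1 rose by 1.19 ± 0.10 and 1.25 ± 0.08. The library kit marks strand, but whether counting used it is not given, so reads of that pair may not be separable. The other 4 were transcripts named by clone only, of which AL157440 lost its call without any 1 of the DMSO libraries.

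The largest falls among genes above the median level of 10.5 FPKM begin with DDIT4 and KIAA1199. DDIT4, an inhibitor of mTORC1, was at 258, 324 and 312 FPKM in DMSO and 88.7, 104 and 75.9 FPKM in ML-792, 30.1% of its control mean (fall 1.73 ± 0.14, adjusted p = 0.000366). KIAA1199 (CEMIP, which degrades hyaluronan) went from 58.8, 61.9 and 61.2 to 20.8, 20.4 and 21.5 FPKM (fall 1.49 ± 0.04). CDC42EP1, an effector of the small GTPase CDC42, went from 72.2, 75.5 and 74.99 to 30.9, 30.8 and 21.4 FPKM (fall 1.41 ± 0.15). All genes named as largest falls were chosen with groups that did not overlap. For DDIT4 and CDC42EP1 the lowest library was ML-792 library 3. SMOC2, a matricellular protein of intestinal stem cells, fell by 1.33 ± 0.08, and TGFBI, a matrix protein gene induced by TGF-beta, fell by 1.07 ± 0.04 from 90.99, 95.5 and 96.7 to 42.8, 45.9 and 44.3 FPKM. Adhesion genes FERMT1 (kindlin-1) and ITGA2 (integrin alpha-2) fell by 1.05 ± 0.05 and 0.92 ± 0.05. LIF, a cytokine gene, fell by 0.99 ± 0.05, the amino acid transporter gene SLC43A1 by 0.97 ± 0.09, and IMPDH1, of guanine nucleotide synthesis, by 0.92 ± 0.06.

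Several of the large falls rested on uneven libraries. TSC22D3, a glucocorticoid-induced leucine zipper, was at 22.2, 25.6 and 12.6 FPKM with ML-792 against 45.2, 49.5 and 48.5 FPKM in DMSO (fall 1.26 ± 0.28), and the call was lost without any 1 of the DMSO libraries or ML-792 library 1 (adjusted p up to 0.0908). PCK2, the mitochondrial PEP carboxykinase, was at 47.2, 44.3 and 27.7 against 74.4, 81.7 and 79.4 FPKM (fall 1.00 ± 0.22), with the call lost without any 1 of the DMSO libraries (up to 0.0803). PRSS1 fell by 1.36 ± 0.34, from 124, 124 and 123 to 66.6, 55.2 and 29.1 FPKM, and lost its call without DMSO library 1, 2 or 3 or ML-792 library 2 (up to 0.114). In all 3 genes ML-792 library 3 was the lowest. PRSS1 encodes trypsin and has near-identical relatives, so its reads may be shared among them.

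Of 30 transcripts that follow MAP kinase activity, 14 fell (46.7%, against 20.1% of all genes), 2 rose (6.67%, against 20%) and 14 did not pass the test. ERRFI1, the feedback inhibitor of EGFR, was at 152, 161 and 159 FPKM in DMSO and 71.3, 72.3 and 38.2 FPKM in ML-792 (fall 1.42 ± 0.28, adjusted p = 0.0193), a call lost without DMSO library 1, 2 or 3. PHLDA1 fell from 283, 251 and 229 to 148, 137 and 114 FPKM (0.94 ± 0.11 in size), and the AP-1 subunit gene FOSL2 from 19.4, 19.3 and 18.4 to 12.1, 10.1 and 7.83 FPKM (0.88 ± 0.14). MYC, the growth-promoting transcription factor, fell by 0.74 ± 0.06 from 90.5, 99.7 and 97.4 to 54.2, 55.4 and 61.01 FPKM, and unlike the 3 before it was not lowest in library 3. The phosphatase genes that shut off ERK, DUSP4 and DUSP6, fell by 0.36 ± 0.06 and 0.34 ± 0.10, the call of DUSP6 being lost when any 1 of the DMSO libraries was left out. Sprouty genes SPRY2 and SPRY4 fell by 0.55 ± 0.04 and 0.35 ± 0.06, the AP-1 gene JUNB by 0.69 ± 0.06 and the ETS factor gene ETV5 by 0.43 ± 0.07. CCND1, cyclin D1, rose by 0.28 ± 0.07 and the ETS factor gene ETV4 by 0.11 ± 0.04 (adjusted p = 0.0494). The ETV4 call was lost without any 1 of the DMSO libraries or of ML-792 libraries 1 and 2, which left 1 higher call in the list. The median of the list was -0.41, and without ML-792 library 3 the counts were 19 lower and 3 higher. ML-792 library 3 was the lowest of the treated libraries for 25 of the 30 genes, against 3926 of all 12050. The ligand genes HBEGF, AREG and EREG and the early genes EGR1 and FOS did not pass the test, with HBEGF at 27.9, 26.2 and 6.13 FPKM in ML-792 against 44.1, 44.9 and 43.5 FPKM in DMSO (adjusted p = 0.174). The part of that library in the falls was not tested beyond these counts.

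Genes of amino acid supply, driven in many cells by the stress factor ATF4, were mostly lower. DDIT4, given above, is also a target of this pathway. CTH, cystathionine gamma-lyase of cysteine synthesis, fell from 4.26, 4.48 and 4.14 to 1.502, 1.65 and 0.785 FPKM (1.22 ± 0.14 in size). ASNS, asparagine synthetase, fell from 115, 116 and 116 to 81.2, 81.8 and 59.6 FPKM (0.64 ± 0.12, adjusted p = 0.00768). The serine synthesis genes PHGDH, PSAT1 and PSPH fell by 0.42 ± 0.06, 0.55 ± 0.07 and 0.55 ± 0.07, the mitochondrial folate enzyme gene MTHFD2 by 0.46 ± 0.05, and the transporter genes SLC7A1 and SLC3A2 by 0.56 ± 0.07 and 0.44 ± 0.09. Of 26 genes tested 15 were lower (57.7%, against 20.1% of all genes) and 0 higher. At an unadjusted p under 0.05 in limma 1 was higher, and the median was -0.47. Leaving out ML-792 library 3 gave 19 lower and 2 higher. ATF4 itself was at 479, 487 and 505 FPKM in DMSO and 473, 461 and 459 FPKM in ML-792 (change -0.08 ± 0.04, adjusted p = 0.162). DDIT3 (CHOP) and TRIB3 did not pass the test, with ML-792 library 3 far below the other 2 in both, for instance 199, 185 and 81.2 FPKM for TRIB3 against 253, 271 and 261 FPKM in DMSO.

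Most enzymes that charge tRNAs with amino acids were lower as well. VARS, for valine, fell from 40.2, 39.05 and 41.5 to 25.2, 25.04 and 25.1 FPKM (0.66 ± 0.04, adjusted p = 3.69e-06), with all treated libraries nearly equal. MARS, for methionine, fell by 0.43 ± 0.04, GARS, for glycine, by 0.41 ± 0.05, and AIMP2, a scaffold of the multi-synthetase complex, by 0.42 ± 0.05. Of 23 genes tested 13 were lower and 0 higher, by limma also 0 higher at an unadjusted p under 0.05, with a median of -0.21. The lower count was 15 without ML-792 library 3.

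Genes of ribosome biogenesis had the highest share of falls among the lists, with 31 of 34 lower, a median of -0.32 and 0 higher (0 also at an unadjusted p under 0.05 in limma). RRP12, of ribosome subunit export, fell from 12.3, 12.9 and 13.4 to 8.95, 8.54 and 7.47 FPKM (0.58 ± 0.07 in size). DDX21, a nucleolar RNA helicase, fell from 59.6, 61.8 and 59.3 to 42.7, 42.1 and 40.5 FPKM (0.52 ± 0.04), and NAT10, an RNA acetyltransferase, from 33.9, 33.3 and 32.4 to 22.9, 23.8 and 22.2 FPKM (0.51 ± 0.04). In these 3 genes every treated library was below every control library, as in 32 of the 34, against 26.8% of all genes tested. PES1 and BOP1, partners in large subunit maturation, fell by 0.48 ± 0.05 and 0.47 ± 0.06. The count was again 31 without ML-792 library 3. Messages for the ribosomal proteins themselves changed less, with 26 of 75 lower, 0 higher (0 at an unadjusted p under 0.05) and a median of -0.11. That count was not stable, at 4 without ML-792 library 2, 12 without DMSO library 2, 17 when DMSO library 3 or ML-792 library 1 was left out, and 46 when library totals were made equal.

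**Figure D4:**
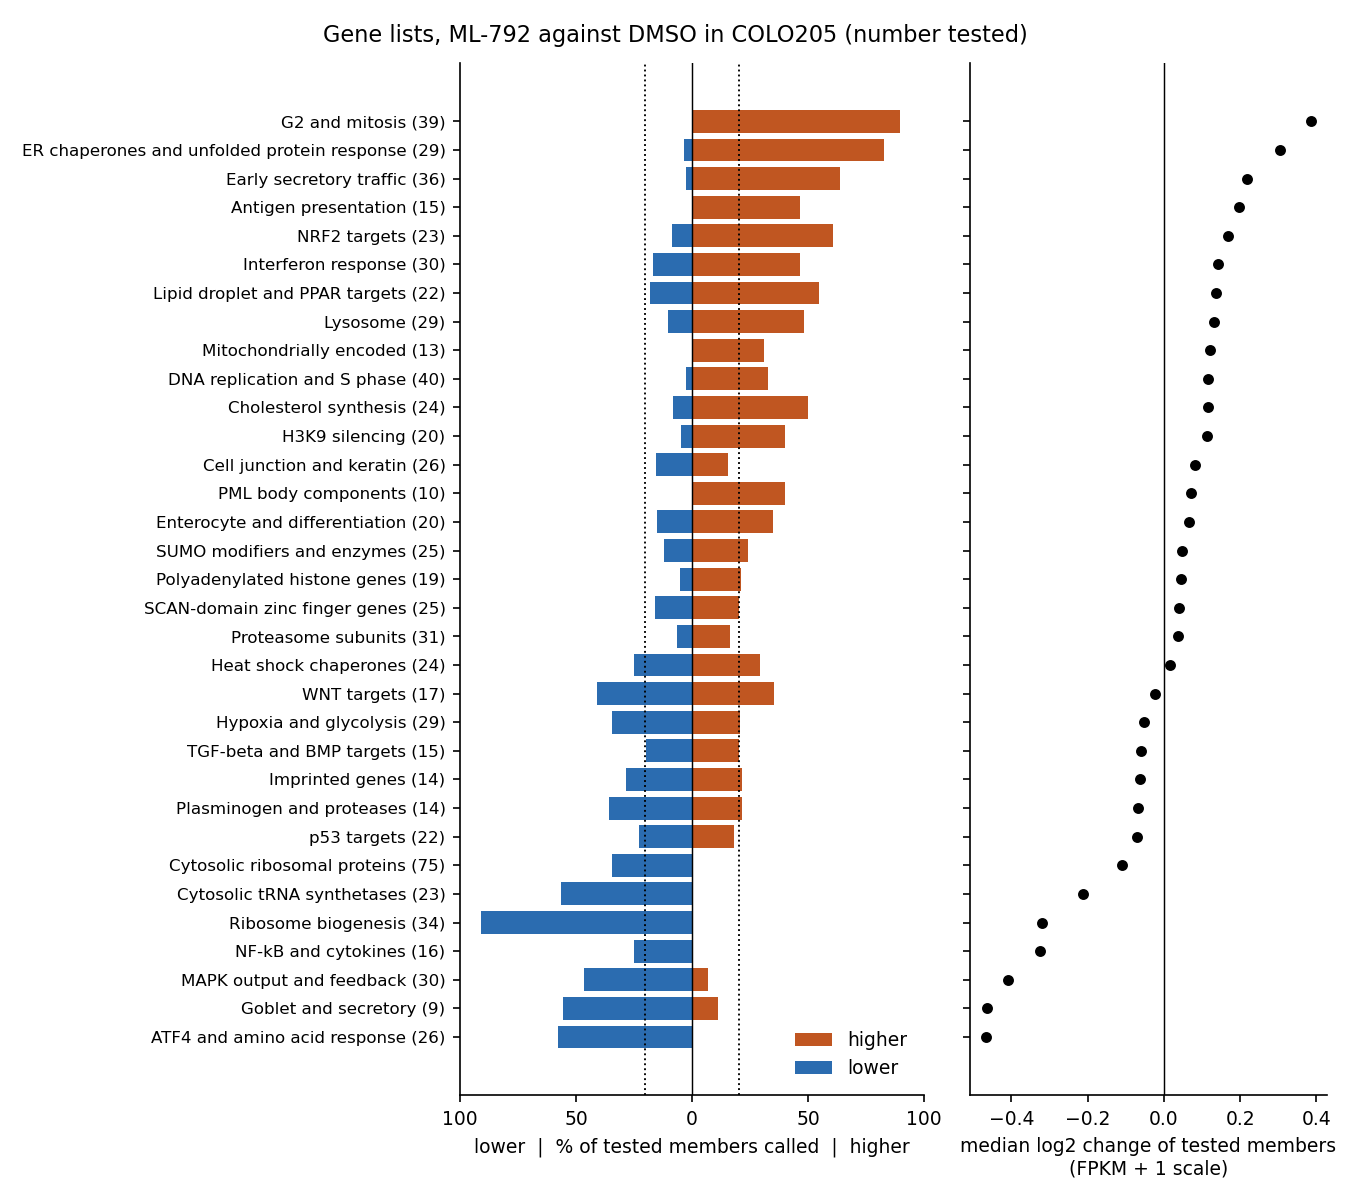
Share of tested members of each gene list called higher (right) or lower (left) in ML-792 against DMSO (left panel, number tested in brackets, dotted lines at the shares over all genes, 20% higher and 20.1% lower) and median log2 change of the tested members (right panel). G2 and mitosis genes reach the highest share called higher and ribosome biogenesis genes the highest share called lower.

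Most genes for folding and moving proteins in the endoplasmic reticulum (ER) rose. Of 29 ER chaperone and unfolded protein response genes 24 were higher and 1 lower, with a median of 0.30, and without ML-792 library 3 the counts were 23 and 1. HSP90B1 (GRP94) was at 562, 555 and 574 FPKM in DMSO and 838, 892 and 997 FPKM in ML-792 (rise 0.69 ± 0.06, adjusted p = 3.27e-05). HSPA5 (BiP), the main ER chaperone, went from 456, 464 and 491 to 663, 708 and 797 FPKM (0.62 ± 0.07). ERO1LB, an oxidase for disulfide bonds, was low and rose from 1.61, 1.54 and 1.54 to 4.10, 3.75 and 3.26 FPKM (0.87 ± 0.08), and DERL3, of ER-associated degradation, which passed the filter through the ML-792 libraries alone, rose by 0.77 ± 0.08. The groups were apart in all 4, and ML-792 library 3 was the highest for HSP90B1, HSPA5 and DERL3. The disulfide isomerase gene PDIA4 rose by 0.62 ± 0.06, the secreted ER stress protein gene MANF by 0.61 ± 0.07, the cochaperone gene DNAJC3 by 0.52 ± 0.06 and the calcium-binding chaperone gene CALR by 0.50 ± 0.06. XBP1, a transcription factor of this response, did not pass (change -0.01 ± 0.06, adjusted p = 0.949). Genes of traffic between ER and Golgi followed, 23 of 36 higher and 1 lower with a median of 0.22 (the same counts without ML-792 library 3), such as the coat genes SEC24D (0.53 ± 0.06) and COPB2 (0.43 ± 0.04) and the retrieval receptor gene KDELR1 (0.51 ± 0.05).

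Many ER chaperone promoters carry the ER stress element, the letters CCAAT and CCACG with 9 bases of any kind between, so that it holds a CCAAT box within it. It was sought on both strands in the 250 bases before the first listed start of each gene (RefSeq, GRCh38.p14). It was found in 7 of the 26 promoters of this list that matched (26.9%), 6 of them of genes that rose, and in 22 of 27195 promoters in all (0.0809%). Here and below, all promoters means those of RefSeq genes whether or not they were tested in COLO205. The shares among tested genes alone were not computed. The CCAAT box alone (CCAAT) was in 22 of the 26 (84.6%) against 33.0% of all promoters. Promoters are shown for the 3 genes with the element and the largest rise, with the element in capitals.

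ERO1LB, chr1:236281959-236282208 on the minus strand: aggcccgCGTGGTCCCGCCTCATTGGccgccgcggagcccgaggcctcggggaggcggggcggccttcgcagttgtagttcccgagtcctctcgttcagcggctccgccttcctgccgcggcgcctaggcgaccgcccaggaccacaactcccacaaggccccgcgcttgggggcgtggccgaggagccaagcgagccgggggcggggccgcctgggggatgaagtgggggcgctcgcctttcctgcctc
HSP90B1, chr12:103930160-103930409 on the plus strand: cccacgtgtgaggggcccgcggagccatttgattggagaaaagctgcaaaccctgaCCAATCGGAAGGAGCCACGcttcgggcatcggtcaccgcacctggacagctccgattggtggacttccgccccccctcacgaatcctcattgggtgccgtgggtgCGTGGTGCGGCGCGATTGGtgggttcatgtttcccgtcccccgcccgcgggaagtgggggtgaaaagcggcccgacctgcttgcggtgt
HSPA5, chr9:125241344-125241593 on the minus strand: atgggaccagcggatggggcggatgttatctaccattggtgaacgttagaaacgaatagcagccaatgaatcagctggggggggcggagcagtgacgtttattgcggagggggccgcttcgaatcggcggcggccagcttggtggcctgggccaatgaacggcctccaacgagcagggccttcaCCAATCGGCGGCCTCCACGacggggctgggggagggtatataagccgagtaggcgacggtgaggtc

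HSP90B1 has 2 copies, 1 on each strand, and the other 2 promoters have 1 copy each. A match of letters describes the sequence only. For the falling list of amino acid supply, the C/EBP-ATF response element TGATGNAA was in 3 of 24 matched promoters (12.5%), those of ASNS, CHAC1 and ATF3, against 3.18% of all, and the ASNS promoter is shown with that element in capitals as the 1 holder that was called.

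ASNS, chr7:97872409-97872658 on the minus strand: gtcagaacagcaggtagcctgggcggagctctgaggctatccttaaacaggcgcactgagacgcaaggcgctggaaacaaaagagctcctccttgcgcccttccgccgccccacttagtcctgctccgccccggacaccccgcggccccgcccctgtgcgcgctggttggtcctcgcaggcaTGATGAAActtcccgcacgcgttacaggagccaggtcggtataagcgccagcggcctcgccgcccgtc

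In the ribosome biogenesis list the E-box CACGTG, a site of MYC and its relatives, was in 3 of 27 promoters (11.1%) against 6.5% of all. The AP-1 site TGANTCA was in 0 of 22 promoters of the MAP kinase list against 6.55% of all, which says only that these letters are not in those windows.

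Genes of G2 and mitosis rose almost without exception, with 35 of 39 higher and 0 lower (0 also at an unadjusted p under 0.05 in limma) and a median of 0.38, and 34 higher without ML-792 library 3. CDKN3, a phosphatase of cyclin-dependent kinases, was at 41.5, 37.3 and 42.5 FPKM in DMSO and 99.2, 96.5 and 102 FPKM in ML-792 (rise 1.27 ± 0.05, adjusted p = 2.51e-07). ANLN (anillin, of the cleavage furrow) went from 20.7, 18.8 and 18.99 to 32.6, 32.04 and 35.3 FPKM (0.75 ± 0.05) and CENPA, the centromeric histone, from 11.9, 11.1 and 11.8 to 18.6, 18.2 and 19.4 FPKM (0.65 ± 0.05). In 36 of the 39 genes every treated library was above every control library, against 26.9% of all genes tested. ECT2, which starts cytokinesis, rose by 0.59 ± 0.04, the kinesin gene KIF20A by 0.67 ± 0.08 and cyclin B1 (CCNB1) by 0.52 ± 0.06. ML-792 library 3 was the highest treated library for 38 of the 39 genes, against 5731 of all 12050, and its part in the rise was not tested beyond the count without it. In bulk RNA, more cells in G2 or mitosis and more message per cell cannot be told apart.

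S phase genes moved less together. SLBP, which binds histone messages, rose from 40.3, 41.04 and 44.8 to 84.4, 90.3 and 89.4 FPKM (1.05 ± 0.05), the cyclin genes CCNE2 and CCNE1 by 0.58 ± 0.06 and 0.43 ± 0.07, and the replicative helicase gene MCM7 by 0.45 ± 0.06. Of 40 genes tested 13 were higher and 1 lower, with a median of 0.12. Without ML-792 library 3 the counts were 10 and 4. The higher count was 7 without DMSO library 1 or 2 and 21 without ML-792 library 1.

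Promoters of mitotic genes are known for CCAAT boxes and for the CHR element TTTGAA. Within 250 bases before the start, CCAAT was in 27 of 33 matched promoters (81.8%, against 33.0% of all), the CHR element in 19 (57.6%, against 13.6%), and both in 17. The promoters of the 2 genes with both and the largest rise are shown with both elements in capitals.

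CDKN3, chr14:54396757-54397006 on the plus strand: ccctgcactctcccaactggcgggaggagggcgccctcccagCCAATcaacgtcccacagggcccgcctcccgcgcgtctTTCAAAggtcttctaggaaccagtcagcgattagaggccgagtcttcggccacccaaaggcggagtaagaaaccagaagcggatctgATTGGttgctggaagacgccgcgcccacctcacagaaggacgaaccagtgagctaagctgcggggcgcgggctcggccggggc
CENPA, chr2:26785806-26786055 on the plus strand: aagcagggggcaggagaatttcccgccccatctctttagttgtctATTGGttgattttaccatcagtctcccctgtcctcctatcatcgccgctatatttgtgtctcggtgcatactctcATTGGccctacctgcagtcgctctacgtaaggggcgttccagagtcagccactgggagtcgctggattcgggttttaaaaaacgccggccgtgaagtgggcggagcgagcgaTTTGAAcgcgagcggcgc

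Each of these promoters has 2 CCAAT boxes and 1 CHR element, counted over both strands.

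Interferon-responsive genes were split. OAS1, a sensor of double-stranded RNA, rose from 13.2, 14.3 and 14.5 to 45.2, 46.8 and 53.7 FPKM (1.72 ± 0.07) and its neighbour OAS3 by 0.73 ± 0.06. IFI6 rose by 1.01 ± 0.07 from 22.5, 21.8 and 24.7 to 42.8, 47.7 and 51.9 FPKM, and IFITM2 and CMPK2, which passed the filter through the ML-792 libraries alone, rose by 1.02 ± 0.08 and 0.96 ± 0.07. OASL, a relative of OAS1, went the other way, from 5.82, 5.90 and 5.74 to 2.68, 2.85 and 2.77 FPKM (fall 0.86 ± 0.05). Of 40 listed genes 30 were tested, 14 higher (46.7%, against 20% of all genes) and 5 lower (16.7%, against 20.1%), with a median of 0.14. Without ML-792 library 3, 11 were higher and 6 lower. IFIT1, IFIT2, MX2 and RSAD2 were among the 10 that did not reach the filter. Of 15 antigen presentation genes 7 were higher and 0 lower (0 also at an unadjusted p under 0.05 in limma), such as B2M, the light chain of MHC class I, from 854, 824 and 874 to 1183, 1201 and 1248 FPKM (0.51 ± 0.04), the peptide trimming gene ERAP2 (0.65 ± 0.06) and the immunoproteasome gene PSMB9 (0.45 ± 0.07). Leaving out ML-792 library 3 made these 10 higher and 1 lower.

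Genes of cytokines and NF-kB signalling gave 4 lower and 0 higher of 16 tested, by limma also 0 higher at an unadjusted p under 0.05. The lower share of 25% was near the 20.1% of all genes tested. Apart from LIF the 4 lower genes were IL23A (-0.56 ± 0.11), NFKBIA (-0.33 ± 0.10) and NFKB1 (-0.28 ± 0.07). All 16 were lowest among treated libraries in library 3. The count was 8 without ML-792 library 1 and 2 without DMSO library 1. It was 5 without ML-792 library 3.

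Among oxidative stress genes the direction was mainly upward, with an exception. Of 23 NRF2 targets 14 were higher (60.9%, against 20% of all genes) and 2 lower, with a median of 0.17. The higher count was 9 without DMSO library 1 and 8 without DMSO library 2. Without ML-792 library 3, 12 were higher and 4 lower. AKR1C3, an aldo-keto reductase, rose from 327, 306 and 328 to 475, 479 and 504 FPKM (0.60 ± 0.05), the ferritin heavy chain gene FTH1 by 0.55 ± 0.04, the glutathione synthesis gene GCLM by 0.60 ± 0.08 and OSGIN1 by 0.75 ± 0.07. HMOX1, heme oxygenase, fell instead, from 8.23, 8.28 and 8.43 to 1.80, 2.08 and 2.00 FPKM, to 23.6% of its control mean (fall 1.65 ± 0.06, adjusted p = 7.09e-08). Of 29 lysosome genes 14 were higher and 3 lower, led by the autophagy receptor gene SQSTM1 (p62), itself an NRF2 target, from 305, 294 and 308 to 631, 558 and 556 FPKM (0.94 ± 0.06), and the cathepsin gene CTSH (0.63 ± 0.06). Without ML-792 library 3 the lysosome counts were the same, and the 3 lower calls became 1 without DMSO library 2 and 0 without ML-792 library 2. Of cholesterol synthesis genes 12 of 24 were higher and 2 lower (10 and 4 without ML-792 library 3, and 1 lower without DMSO library 2 or 3), with INSIG1, which retains the sterol sensor in the ER, at 0.81 ± 0.07. HMGCS1 was uneven, at 65.2, 45.2 and 36.1 FPKM in ML-792 against 27.9, 26.2 and 26.1 FPKM in DMSO (rise 0.80 ± 0.23), and its call was lost without any 1 of the DMSO libraries or ML-792 library 2.

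Genes of intestinal identity and WNT signalling moved in both directions. In 17 WNT targets 6 were higher (35.3%, against 20% of all genes) and 7 lower (41.2%, against 20.1%). The counts were the same without ML-792 library 3. The stem cell factor gene ASCL2 rose by 0.68 ± 0.07, SP5 by 0.67 ± 0.10, TNFRSF19 (TROY) by 0.72 ± 0.08 and the stem cell receptor gene LGR5 by 0.49 ± 0.08. CD44, the hyaluronan receptor, fell from 24.1, 23.6 and 22.2 to 12.5, 12.3 and 12.99 FPKM (0.84 ± 0.05 in size). The WNT inhibitors NKD1 and NKD2 parted, NKD1 rising by 0.63 ± 0.08 and NKD2 falling by 0.61 ± 0.06. Among goblet cell genes 5 of 9 tested were lower (55.6%, against 20.1% of all genes) and 1 higher (11.1%, against 20%). SPDEF, the transcription factor of goblet cells, fell from 7.41, 8.42 and 9.46 to 3.49, 3.51 and 3.74 FPKM (1.04 ± 0.08), the trefoil peptide gene TFF1 by 0.89 ± 0.08 and the mucin glycosylation gene ST6GALNAC1 by 0.82 ± 0.06. AGR2, a disulfide isomerase of mucin folding in the ER, rose from 248, 235 and 252 to 543, 537 and 577 FPKM (1.17 ± 0.05). Of enterocyte genes 7 of 20 were higher and 3 lower, with the sodium-proton exchanger gene SLC9A3 at 0.92 ± 0.06 and the peptide hormone gene GUCA2A at 0.75 ± 0.07.

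Proteases and imprinted genes held further isolated changes. ADAM19, a metalloprotease, fell from 10.7, 11.01 and 11.02 to 2.92, 3.17 and 3.36 FPKM (1.52 ± 0.06 in size), ADAM8 by 0.66 ± 0.05 and the urokinase gene PLAU by 0.68 ± 0.07, while the maspin gene SERPINB5 rose by 0.70 ± 0.04. Besides H19, the imprinted cell cycle inhibitor gene CDKN1C rose from 1.97, 1.41 and 1.44 to 3.40, 2.98 and 3.76 FPKM (0.75 ± 0.10), and the adaptor gene GRB10 fell from 11.4, 11.2 and 10.5 to 5.89, 5.10 and 3.36 FPKM (1.08 ± 0.17). IGF2, which lies beside H19, did not reach the filter.

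Several stress and housekeeping lists had no common direction. Of 29 hypoxia and glycolysis genes 10 were lower and 6 higher (10 and 7 without ML-792 library 3), and 6 were lower without DMSO library 2 or 3 or ML-792 library 2. The glucose transporter gene SLC2A1 fell by 0.73 ± 0.07 and the carbonic anhydrase gene CA9 by 0.69 ± 0.06, while the oxygen sensor gene EGLN3 and the demethylase gene KDM3A rose by 0.48 ± 0.05 and 0.42 ± 0.05. Heat shock chaperones gave 7 higher and 6 lower of 24, with the small chaperone gene HSPB1 rising from 114, 109 and 119 to 158, 173 and 191 FPKM (0.61 ± 0.07), and 2 or 3 were lower without any 1 library other than ML-792 library 3, without which 7 were lower. HSPA1A and HSPA1B, near-identical copies that may share reads, rose by 0.45 ± 0.10 and 0.49 ± 0.10, HSPA1A having passed the filter through the ML-792 libraries alone. Of 22 p53 targets 4 were higher and 5 lower, such as MDM2, the ubiquitin ligase of p53 (0.39 ± 0.05), BTG2 (0.51 ± 0.07) and the decoy receptor gene TNFRSF10C (-0.57 ± 0.08). The 5 lower p53 targets became 3 when DMSO library 1 or 2 or ML-792 library 1 was left out and 2 when DMSO library 3 was. None of 5 metallothionein genes was called by limma, with a median of -0.80, 3 lower at an unadjusted p under 0.05, and all 5 lowest among treated libraries in library 3. Without that library 3 were called lower. The remaining lists lay near the shares over all genes or rested on few calls. Of 26 cell junction and keratin genes 4 were higher and 4 lower, and of 15 TGF-beta and BMP targets 3 and 3 (5 lower without ML-792 library 1), with the antagonist gene BAMBI falling by 0.57 ± 0.07 and ID2 rising by 0.44 ± 0.06. Of 31 proteasome genes 5 were higher and 2 lower, with a higher count of 3 when DMSO library 1 or ML-792 library 2 was left out and 2 when DMSO library 2 was. The 2 lower proteasome calls became 0 when DMSO library 1, 2 or 3 or ML-792 library 1 was left out and 1 when ML-792 library 2 was. Of 19 polyadenylated histone genes 4 were higher and 1 lower, and 6 and 4 without ML-792 library 3. Among 13 mitochondrially encoded genes, whose summed share was above that of DMSO in each ML-792 library, 4 were higher, but 0 when DMSO library 2 was left out, 1 when ML-792 library 2 was, 2 when ML-792 library 3 was and 8 when ML-792 library 1 was.

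How far the response was that of COLO205 was asked by testing the difference of its ML-792 effect from that in HCT116, another colorectal line, and in MDAMB231, a breast cancer line, both treated with the same dose for the same time (3 ML-792 and 3 DMSO libraries each). In a fit of all 18 libraries, limma called a difference from HCT116 in 2765 of 14251 genes (19.4%), with 1376 more positive in COLO205 (9.66%) and 1389 more negative (9.75%). The difference from MDAMB231 was called in 3702 genes (26%), with 1989 more positive (14%) and 1713 more negative (12%). Both comparisons use the same 6 COLO205 libraries.

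The largest rises of COLO205 were smaller or not called in the other lines, which started from unlike levels. ENTPD8 was at 1.01 ± 0.0868 FPKM (mean ± SD, n = 3) in HCT116 with DMSO and 1.24 ± 0.174 FPKM with ML-792, and at 0.37 ± 0.0375 and 0.489 ± 0.0355 FPKM in MDAMB231, so that the effects differed by 5.50 ± 0.08 and 5.54 ± 0.08. NSMF differed by 4.16 ± 0.10 and 4.30 ± 0.10. ADIRF, close to silent in COLO205 with DMSO, was already at 159 ± 17.3 FPKM in HCT116 with DMSO and 42.2 ± 1.26 FPKM in MDAMB231 with DMSO, and was at 162 ± 6.35 and 44.2 ± 3.25 FPKM with the drug (differences 4.13 ± 0.14 and 4.10 ± 0.14). PLIN2 changed by -0.12 ± 0.05 in HCT116 and 0.31 ± 0.05 in MDAMB231 (differences 3.01 ± 0.06 and 2.58 ± 0.06). ATHL1 changed by -0.09 ± 0.06 and 0.30 ± 0.06 in those lines. H19 rose in HCT116 as well, by 1.57 ± 0.10, less than in COLO205 (difference 1.24 ± 0.14, adjusted p = 6.48e-06), and changed by -0.02 ± 0.10 in MDAMB231. Among lipid genes PDK4 rose by 0.96 ± 0.07 and CREB3L3 by 0.85 ± 0.05 in MDAMB231, both less than in COLO205 (adjusted p of the difference 1.81e-06 and 2.51e-10).

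On the lower side, DDIT4 changed by -0.43 ± 0.11 in HCT116 and -0.33 ± 0.11 in MDAMB231, with differences of -1.29 ± 0.16 and -1.39 ± 0.16. KIAA1199 fell in all 3 lines, with changes of -0.31 ± 0.04 in HCT116, where it was low at 0.535 ± 0.0545 FPKM in DMSO, and -0.63 ± 0.04 in MDAMB231. EHF, an epithelial ETS factor, fell by 0.30 ± 0.04 in COLO205 and rose by 0.94 ± 0.05 in HCT116, a difference of -1.24 ± 0.07 (adjusted p = 6.79e-10). MLXIPL (ChREBP, a glucose-responsive transcription factor) fell by 0.71 ± 0.05 in COLO205, from 35.3, 38.1 and 37.9 to 22.01, 23.2 and 21.7 FPKM, and rose by 1.71 ± 0.06 in MDAMB231. TGFBI fell in COLO205 and rose by 0.55 ± 0.04 in MDAMB231, a difference of -1.63 ± 0.06. TSC22D3 differed from MDAMB231 by -1.58 ± 0.24, where its own change was 0.32 ± 0.17. The remaining named differences rest on genes that the other line lacks. SMOC2 and PRSS1 were listed at 0 in all HCT116 libraries, and PLA2G2A, a secreted phospholipase that fell from 1143, 1120.4 and 1197 to 711, 707 and 754 FPKM in COLO205, was listed at 0 in MDAMB231 with DMSO and reached 0.842 ± 0.856 FPKM there with ML-792.

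**Figure D5:**
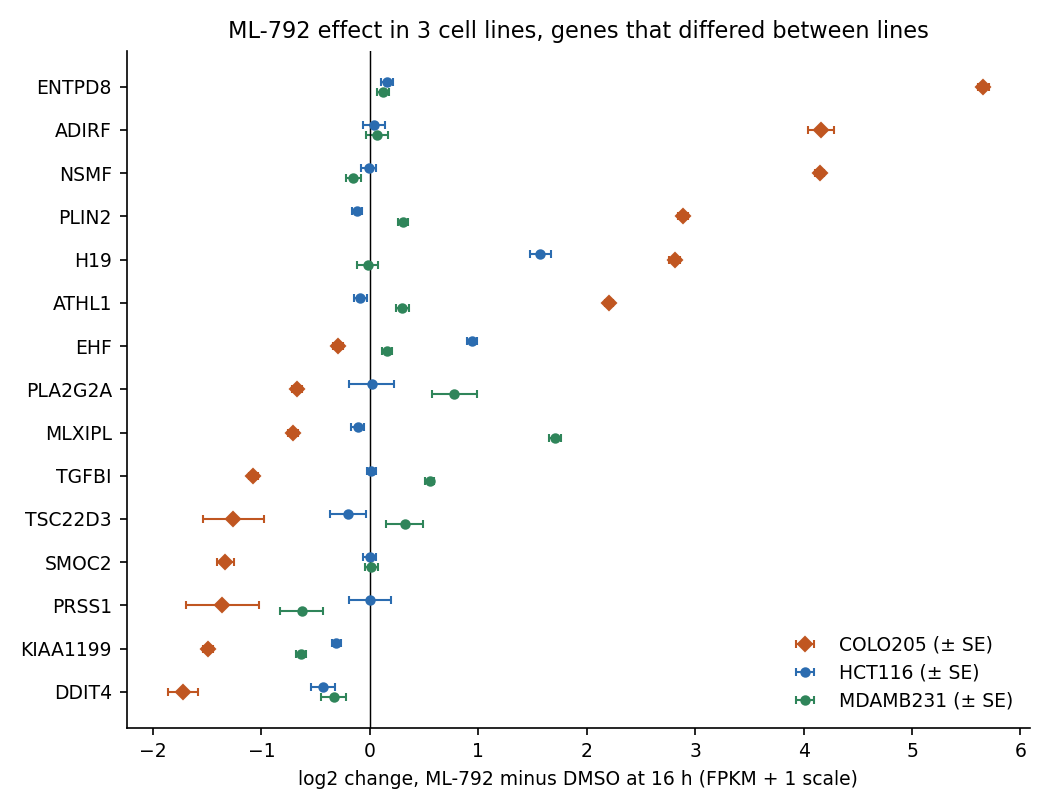
log2 change of ML-792 against DMSO at 16 h in COLO205 (diamonds), HCT116 and MDAMB231 (circles), with the SE from limma, for the 15 genes with the largest differences of effect between lines among abundant genes called in COLO205. ENTPD8, ADIRF and NSMF lie near 0 in both other lines and above 4 in COLO205, while EHF, MLXIPL and TGFBI lie on opposite sides of 0 in COLO205 and at least 1 other line.

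The list counts that follow stand against the shares over all genes. For HCT116 these were 9.66% more positive and 9.75% more negative in COLO205, and for MDAMB231 14% and 12%. Of the 39 G2 and mitosis genes 34 had a more positive change in COLO205 than in MDAMB231 and only 6 than in HCT116. Their median change was -0.06 in MDAMB231 and 0.20 in HCT116, against 0.38 in COLO205. For ER chaperones, 17 of 29 were more positive and 2 more negative than in HCT116, and 21 more positive and 0 more negative than in MDAMB231, where 1 was more negative at an unadjusted p under 0.05 in limma. Ribosome biogenesis genes were more negative in COLO205 than in HCT116 for 21 of 34 (1 more positive) and than in MDAMB231 for 24, against medians of -0.09 and -0.03 in those lines. Of the 26 amino acid response genes 14 were more negative than in HCT116 and 16 than in MDAMB231. The SUMO genes did not share 1 order, since SUMO3 rose by 1.30 ± 0.05 in HCT116 and by 0.23 ± 0.05 in MDAMB231 and SUMO2 by 0.44 ± 0.05 and 0.18 ± 0.05, so that SUMO3 rose less in COLO205 than in HCT116 (difference -0.29 ± 0.07, adjusted p = 0.00513) while SUMO2 rose more (difference 0.40 ± 0.08, adjusted p = 0.00141).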

How the data were processed

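Gene levels of the 6 COLO205 libraries of 16 h, and for the differences between lines those of all 18 libraries of 16 h, were taken from the authors' deposited table of FPKM values for 30373 gene names. The file header names no unit. The values were read as FPKM because low values move in steps that scale with transcript length, which gave 26.4 to 33.7 M (mega) fragments per library, near the 30 M reads planned per the labels' protocols. DESeq2 1.10.1 appears in the submitters' processing notes, with no role stated. Aligner, build and gene models: not given in the sources used here. Groups came from the cell line, treatment and time in the labels. Genes reaching 1 FPKM in no fewer than 3 libraries were tested on log2(FPKM + 1) with limma 3.58.1 in R 4.3.3 (lmFit, eBayes with trend and robust), with Benjamini-Hochberg adjustment over all genes tested and calls at an adjusted p under 0.05. Tests were made on FPKM and not on counts, so depth enters only through the spread of the values. A difference between lines was the interaction contrast in the 18-library fit. The text names 15 rises and 15 falls, the largest of called genes above the median level whose groups did not overlap, up to 4 called members of each of 37 gene lists with others where their roles need them, genes of the SUMO modifiers and enzymes, the 5 largest differences on each side of each interaction, and the 10 largest ratios among genes switched on. Members and lists were chosen with earlier results of these data known. Of the names, 21520 matched RefSeq (GRCh38.p14), which gave promoters, gene order, length and GC content. The fitting script was tested on simulated data. Alternatives were other pseudocounts (0.1 and 5), filters (none and 5 FPKM), scalings and variance settings, each library left out, the fit of other sets of libraries and removal of the GC and length trend. Results of a few genes that this rule names are not reported here.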

Additional observations from a re-analysis of the deposited data

Results flagged for a closer look

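The ML-792 effect of COLO205 differed from that of HCT116 in 2765 genes and from that of MDAMB231 in 3702 genes by the limma interaction test, and the largest of these differences are given here because 2 lines under the same contrast moved apart. The 2 comparisons use the same COLO205 libraries. Differences are on the log2(FPKM + 1) scale, COLO205 minus the other line. All 20 kept their interaction call under every alternative tried, each COLO205 library left out included. The falls of PRSS1 and TSC22D3 within COLO205 were less stable. In the fit of COLO205 alone, PRSS1 lost its call without DMSO library 1, 2 or 3 or ML-792 library 2. TSC22D3 lost its call there without DMSO library 1, 2 or 3 or ML-792 library 1. For PRSS1 the SE was 0.34 in that fit and 0.28 for the difference from HCT116. The 18-library fit shares its estimate of a gene's spread over all groups, and PRSS1 did not vary in HCT116, where it was at 0. Its kept interaction call therefore does not make its fall in COLO205 more certain.

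More positive than in HCT116 were the changes of ENTPD8 (5.50 ± 0.08), NSMF (4.16 ± 0.10), ADIRF (4.13 ± 0.14), PLIN2 (3.01 ± 0.06) and ATHL1 (2.29 ± 0.09). More negative were those of PRSS1 (-1.36 ± 0.28), SMOC2 (-1.33 ± 0.09), DDIT4 (-1.29 ± 0.16), EHF (-1.24 ± 0.07) and KIAA1199 (-1.18 ± 0.06). PRSS1 and SMOC2 were listed at 0 in HCT116, so their differences equal the fall in COLO205.

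More positive than in MDAMB231 were the changes of ENTPD8 (5.54 ± 0.08), NSMF (4.30 ± 0.10), ADIRF (4.10 ± 0.14), H19 (2.83 ± 0.14) and PLIN2 (2.58 ± 0.06). More negative were those of MLXIPL (-2.42 ± 0.08), TGFBI (-1.63 ± 0.06), TSC22D3 (-1.58 ± 0.24), PLA2G2A (-1.45 ± 0.29) and DDIT4 (-1.39 ± 0.16). MLXIPL and TGFBI changed in opposite directions in the 2 lines. PLA2G2A was listed at 0 in MDAMB231 with DMSO and at 0.842 ± 0.856 FPKM (mean ± SD) there with ML-792.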

How the results depend on the processing

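The number of genes called between ML-792 and DMSO was 4830 and ranged from 3378 to 4929 when 1 COLO205 library was left out (1710 to 2419 higher, 1668 to 2646 lower), and the number at 2-fold or more, 104, from 81 to 103. The 2-fold count was 181 with a pseudocount of 0.1 and 40 with a pseudocount of 5, since the constant sets the size of changes in low genes. All other counts over all genes stayed within 1.5-fold under the alternatives. The differences called ranged from 2255 to 2899 against HCT116 (1147 to 1448 more positive, 1080 to 1451 more negative) and from 3098 to 3840 against MDAMB231 (1714 to 2082 and 1384 to 1758).

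Stability was counted over 168 called genes taken by the fixed parts of the naming rule, with a limited number of called members per list. Genes named beyond these were not counted, among them SETDB1, DUSP6 and ETV4, whose calls were also lost without at least 1 library. The counts are therefore not shares of all genes named in the text. Of the 168 genes, 24 lost the call without at least 1 library (at most 21, without DMSO library 2). Under at least 1 other alternative 13 lost it (at most 10, with the GC and length trend removed), and 0 changed direction. The cause was not tested. No paired analysis was possible because no label numbers the replicates or ties a treated library to a control library. With 3 libraries a group, changes of low genes are the least precise.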
